A study of Mus musculus with 8 samples.

Results

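Interferon-stimulated genes are genes whose transcription rises when a cell receives an interferon. A set of 39 such genes was followed in the brown adipose tissue (BAT) of cachectic mice, chosen by symbol from the 56953 genes of the deposited count table, and all 39 were found there. The Ifitm genes were left out of the set. The BAT RNA-seq compared 4 control (CTR) and 4 cachectic (CAC) wild-type C57BL/6J mice that were 8 to 10 weeks old at injection, with 1 library per mouse. The CAC mice carried a tumour grown from 3000000 Lewis lung carcinoma (LLC) cells placed under the skin of the right flank, and the CTR mice received only the PBS vehicle. LLC is an established mouse lung cancer line, used here as a model of cancer-associated cachexia, the loss of fat and muscle that accompanies a tumour. The labels allow either sex and give none per library. The question for this set was whether transcripts that interferons induce differed between CAC and CTR BAT.

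Interferons are secreted cytokines of antiviral defence. Type I interferons bind the receptor pair Ifnar1 and Ifnar2, and the type II interferon, made mainly by T and NK cells, binds Ifngr1 and Ifngr2. The receptors activate the JAK kinases. A complex that contains STAT2 and IRF9 then binds the interferon-stimulated response element (ISRE) of target promoters, while the gamma-activated sequence (GAS) serves the response to type II interferon. The genes switched on in this way include sensors of viral RNA, enzymes that block viral replication, the ubiquitin-like protein ISG15 and large GTPases that attack intracellular microbes.

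Promoter sequence gives a view of the set that does not depend on the libraries. The RefSeq promoter table of GRCm38.p6 spans 250 bases before to 50 bases after each start site and holds 28 of the 39 members, with 36 promoters. The ISRE core, searched here on both strands as GAAA, any 2 bases and GAAA again, occurred in 17 of these 36 promoters (47.2%), against 3.44% of the 32851 promoters of all genes. It was present in 16 of the 28 members (57.1%), against 3.99% of all genes with a promoter. The GAS letters TTCNNNGAA, which read alike on both strands, occurred in 11 of the 36 promoters (30.6%), against 8.3% of all promoters. In 93 promoters of interferon-stimulated genes outside the set, the ISRE core occurred in 40.9% and the GAS letters in 8.6%. A match describes letters only and says nothing of whether a factor was bound there. The ISRE windows of 8 members are given because these genes carry the levels described in the following paragraphs. They comprise Rsad2 and Trim30a, a pair with an unadjusted p below 0.05 (the other such members, Ly6e and Rtp4, are not in the promoter table), the signal transducer Stat2, ISG15 itself, a pair of IFIT genes and a pair of GTPases. Each is written 5′ to 3′ on the strand of its gene, and the capitals mark the ISRE core.
Rsad2, chr12:26456539-26456596, minus strand, core 120 bases upstream of the start: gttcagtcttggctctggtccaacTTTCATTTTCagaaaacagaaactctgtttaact
Trim30a, chr7:104465196-104465253, minus strand, core 36 bases upstream: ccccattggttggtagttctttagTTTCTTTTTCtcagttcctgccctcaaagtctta
Stat2, chr10:128270252-128270309, plus strand, core 222 bases upstream: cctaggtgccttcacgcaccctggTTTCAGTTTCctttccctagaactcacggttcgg
Isg15, chr4:156200851-156200908, minus strand, core 66 bases upstream: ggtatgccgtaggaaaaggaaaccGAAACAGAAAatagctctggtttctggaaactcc
Ifit3, chr19:34583349-34583406, plus strand, core 156 bases upstream: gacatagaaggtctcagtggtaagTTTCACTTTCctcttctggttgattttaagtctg
Ifit1, chr19:34640761-34640818, plus strand, core 104 bases upstream: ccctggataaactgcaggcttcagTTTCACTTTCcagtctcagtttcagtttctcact
Gbp7, chr3:142530259-142530316, plus strand, core 53 bases upstream: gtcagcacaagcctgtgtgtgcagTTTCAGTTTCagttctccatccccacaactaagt
Igtp, chr11:58199498-58199555, plus strand, core 34 bases upstream: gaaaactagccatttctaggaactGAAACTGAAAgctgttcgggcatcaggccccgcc

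Isg15 held 3 overlapping ISRE cores in its promoter, and Gbp7 held 1 ISRE core together with 2 GAS matches. Igtp held 1 of each. The ISRE core was found in 8 of the 15 members (53.3%) with a promoter in the table that could be tested for expression. Among the members with too few reads for that test it was found in 8 of 13 (61.5%).

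Libraries held 2454493 to 4827956 counts in CTR and 1823167 to 3392538 in CAC. Levels are given as CPM, which are counts brought to a common total by the TMM method. A count of 0 allows up to 3 counts, which is 0.661 to 1.62 CPM depending on the library, for counting error only. The labelled tissue was checked by its markers, and all 12 brown adipocyte markers were read in both groups, with a summed level of 18444.7 to 20731.4 CPM in CTR and 18410.5 to 20618.5 CPM in CAC. Only Ppargc1a had an edgeR adjusted p below 0.05, as higher in CAC with overlapping groups (log2 ratio 0.73, edgeR adjusted p = 0.0201). Plin1 and Cox7a1 did not pass (log2 ratios -0.27 and -0.22, edgeR adjusted p = 0.192 and 0.292). Both lay lower in every CAC mouse than in any CTR mouse, as in 3.4% of all tested genes. Markers of other cells differed between the groups as well. The summed level of 12 neutrophil markers was 12 to 15.2 CPM in CTR and 175.7 to 449.2 CPM in CAC. Of these 12, 4 were tested and all 4 were higher in CAC, beside 50% of all tested genes. The adjusted threshold of edgeR was passed by 3, all higher, beside 0.739% of all tested genes. These were S100a8, S100a9 and Retnlg, with means of 3.57, 1.6 and 1.02 CPM in CTR and 174.7, 73.5 and 10.7 CPM in CAC. They passed the low-count filter only through their CAC libraries, so their direction was set by it. The shares of 50% and 0.739% are therefore no fair comparison for them. Ngp and Lcn2, under the filter, were also higher in every CAC mouse than in any CTR mouse. Of all genes under the filter with at least 3 counts in 4 libraries, 3.71% separated in either direction. Ngp and Lcn2 reached 3 counts only in CAC libraries. Cxcr2 and Mmp8 separated too but had too few counts for that share. Mmp8 had 1 count in CTR replicate 1 and 1 in CAC replicate 2. The groups overlapped for Csf3r, Camp and Ltf, and Ly6g had 2 counts in total. The summed level of 15 macrophage and monocyte markers was 224.5 to 248.5 CPM in CTR and 303.6 to 428.1 CPM in CAC, and that of 6 erythrocyte markers was 6179.5 to 19268 and 14636.2 to 44325.8 CPM. Of 10 endothelial markers, 9 were tested, with 3 higher and 6 lower in CAC. Esam was higher (log2 ratio 0.62, edgeR adjusted p = 0.0201) and the only 1 of the 9 to pass the adjusted threshold. Kdr had a log2 ratio of -0.32 (unadjusted p below 0.05, edgeR adjusted p = 0.259). The part of these markers in the results that follow was not tested. In a bulk tissue, fewer cells of a type and less RNA per cell cannot be told apart.

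Of the 39 members, 22 passed the low-count filter of edgeR and were tested. None of them had an adjusted p below 0.05 in the quasi-likelihood test of edgeR (Benjamini-Hochberg over 9876 genes). Of all tested genes, 0.932% passed this threshold in either direction and 0.739% passed it as higher in CAC. At an unadjusted p below 0.05, 4 members were higher in CAC, namely Ly6e, Trim30a, Rsad2 and Rtp4. They make up 18.2% of the 22, beside 7.01% of all tested genes higher at that threshold. No member was lower at that threshold, where 5.93% of all genes were. DESeq2, run without that filter on all 39 members, also found 4 higher and 0 lower at an unadjusted p below 0.05. It placed 1 member, Ly6e, below an adjusted p of 0.05. The log2 ratio of CAC to CTR, as fitted by edgeR, was above 0 in 15 of the 22 members (68.2%), against 50% of all tested genes. Its median was 0.18 in the members and 0 in all tested genes. This median was 0.02 when CAC replicate 3 was left out, in a fit where the filter kept 23 members and not 22.

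Ly6e, an interferon-induced membrane-anchored protein of the Ly6 family, lies at chr15:74955051-74959905 of GRCm38 and had the lowest p-value of the set. Its level was 70.5, 83.1, 82.6 and 92.6 CPM in CTR replicates 1 to 4 and 106.5, 113.3, 116.0 and 106.3 CPM in CAC replicates 1 to 4. All 4 CAC mice lay above all 4 CTR mice, a separation that 3.64% of all tested genes showed in this direction. The mean was 82.2 ± 9.04 CPM (SD, n = 4) in CTR against 110.5 ± 4.89 CPM in CAC, a log2 ratio of 0.42 (standard error, SE, 0.11, 95% interval 0.20 to 0.65, edgeR adjusted p = 0.0707). This is a 1.34-fold difference that did not pass the threshold. Its adjusted p ranged from 0.0463 to 0.239 over all alternatives and was below 0.05 with DESeq2 (0.0497) and without CTR replicate 4 (0.0463).

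Trim30a, a tripartite motif protein that restrains inflammatory signalling, lies at chr7:104409025-104465193. It stood at 10.1, 9.59, 7.47 and 6.83 CPM in the CTR mice and at 21.1, 12.8, 16.7 and 10.8 CPM in the CAC mice. The groups did not overlap, although the lowest CAC mouse, replicate 4, was close to the highest CTR mouse. The mean went from 8.49 ± 1.58 to 15.3 ± 4.55 CPM (SD, n = 4), a log2 ratio of 0.84 (SE 0.23, 95% interval 0.36 to 1.32, edgeR adjusted p = 0.0881). The adjusted p of Trim30a was below 0.05 without a filter on low counts (0.0228) and without CAC replicate 4 (0.0489), and it reached 0.212 without CAC replicate 3.

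Rsad2 encodes viperin, an enzyme that makes a chain-terminating nucleotide and so stops viral RNA synthesis, and lies at chr12:26442746-26456452. Its CTR values were 16.2, 24.5, 22.4 and 22.7 CPM and its CAC values were 33.5, 25.5, 37.5 and 28.9 CPM. The groups did not overlap, with CAC replicate 2 just above CTR replicate 2. Rsad2 averaged 21.5 ± 3.63 CPM in CTR against 31.4 ± 5.24 CPM in CAC (SD, n = 4), a log2 ratio of 0.55 (SE 0.16, 95% interval 0.21 to 0.88, edgeR adjusted p = 0.111). Its adjusted p lay between 0.0609 and 0.320 under every alternative run.

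Rtp4, a chaperone of membrane receptors that also binds viral RNA, lies at chr16:23520291-23614222. It was read at 3.24, 6.39, 3.73 and 3.53 CPM in CTR and at 4.32, 6.91, 12.0 and 6.27 CPM in CAC. The groups overlapped, because CTR replicate 2 lay above CAC replicates 1 and 4, and CAC replicate 3 was the highest by far. The log2 ratio of Rtp4 was 0.85 (SE 0.32, 95% interval 0.19 to 1.52, edgeR adjusted p = 0.246). Without CAC replicate 3 it fell to 0.45 and no longer passed an unadjusted p of 0.05 in edgeR.

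**Figure D1:**
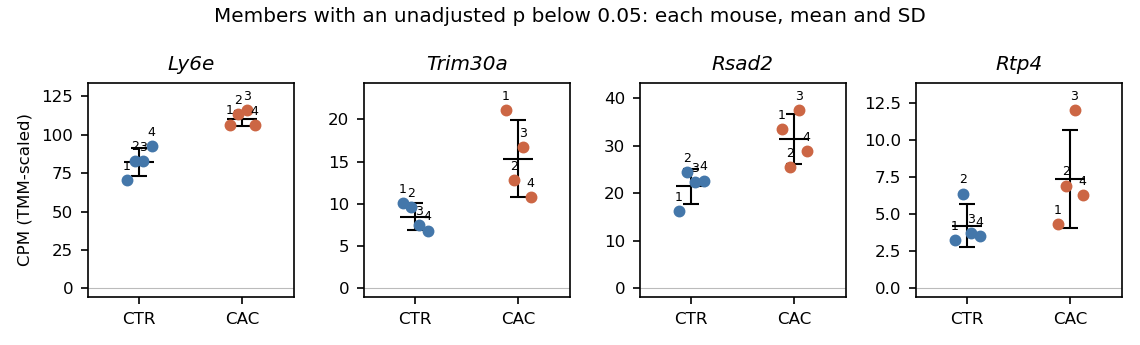
Level in CPM (linear axis) of Ly6e, Trim30a, Rsad2 and Rtp4 in each CTR and CAC mouse, with replicate numbers and bars for the mean and SD of 4 mice. The CAC points lie above the CTR points for Ly6e, Trim30a and Rsad2, while CTR replicate 2 of Rtp4 (6.39 CPM) lies among the CAC points.

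None of the 4 members with a role in signalling and transcription passed the adjusted threshold, and 3 of them had a log2 ratio above 0. Irf9, the DNA-binding subunit of the complex that reads the ISRE, was at 16.6, 17.3, 16.2 and 15.4 CPM in CTR and at 13.0, 26.6, 23.4 and 20.2 CPM in CAC. Thus 3 CAC mice exceeded every CTR mouse, and CAC replicate 1 lay below all of them. The log2 ratio of Irf9 was 0.36 (SE 0.19, edgeR adjusted p = 0.424), and it was 0.51 without CAC replicate 1, with an unadjusted p below 0.05 and an edgeR adjusted p of 0.160. Stat2, its partner in that complex, averaged 5.97 ± 1.47 CPM in CTR against 7.31 ± 2.04 CPM in CAC (adjusted p = 0.712 in edgeR). Irf7, the main regulator of type I interferon genes, averaged 8.97 ± 0.760 and 9.78 ± 3.10 CPM (adjusted p = 0.812 in edgeR). With single libraries left out, the log2 ratio ran from 0.02 to 0.52 for Stat2 and from 0.01 to 0.31 for Irf7. Irf1, a transcription factor induced by type II interferon, had the second lowest log2 ratio of the 22 members tested by edgeR. It measured 28.8, 20.2, 27.0 and 21.6 CPM in CTR and 15.7, 26.1, 21.4 and 17.4 CPM in CAC. The groups of Irf1 overlapped widely, and its log2 ratio was -0.26 (95% interval -0.63 to 0.11, edgeR adjusted p = 0.570).

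Of the 3 sensors of viral nucleic acid, 1 passed the filter. Ifih1, which encodes the RNA sensor MDA5, averaged 5.11 ± 1.54 CPM in CTR against 4.72 ± 0.144 CPM in CAC, a log2 ratio of -0.11 (edgeR adjusted p = 0.921). Dhx58, which encodes the related LGP2, averaged 2.54 ± 1.39 and 2.14 ± 0.378 CPM and was under the filter (exact permutation p = 0.943). Zbp1, a sensor of Z-form nucleic acid that can start necroptosis, had 13 counts over the 8 libraries.

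Among the antiviral effectors, 3 of 12 members passed the filter. Rsad2 is described above. Samhd1, which depletes the nucleotides that viruses need, stood at 21.2, 16.5, 26.6 and 22.5 CPM in CTR and at 23.8, 29.2, 29.6 and 24.8 CPM in CAC. CTR replicate 3 lay above CAC replicates 1 and 4, and the log2 ratio was 0.32 (SE 0.16, edgeR adjusted p = 0.407). Ifit3, of the family that binds foreign RNA ends, had the lowest log2 ratio of the 22 members tested by edgeR. It was at 6.84, 6.66, 2.07 and 5.29 CPM in CTR and at 1.08, 2.13, 4.98 and 6.97 CPM in CAC. Both groups spanned almost the same range, and the interval of the log2 ratio of -0.35 ran from -1.22 to 0.51 (edgeR adjusted p = 0.777). With single libraries left out, the log2 ratio of Ifit3 ran from -0.77 without CAC replicate 4 to -0.11 without CAC replicate 1.

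The other 9 effectors were under the filter. Adar, which edits adenosine in double-stranded RNA, averaged 2.45 ± 0.918 CPM in CTR against 3.33 ± 0.553 CPM in CAC (exact permutation p = 0.171). Eif2ak2, which encodes the translation-blocking kinase PKR, averaged 3.5 ± 1.17 and 3.19 ± 1.61 CPM (exact permutation p = 0.800). The oligoadenylate synthetase genes Oas1a and Oasl2, of the family that activates RNA decay, gave exact permutation p-values of 0.314 and 0.657, and Ifit1 gave 0.914. Mx1, a GTPase that traps viral nucleoproteins, reached 4 counts in total, Ifit2 9 counts, Oas2 10 counts and Bst2, which encodes the virion tether tetherin, 21 counts. Differences in these 4 genes were not detectable at this depth.

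The ISG15 system attaches a ubiquitin-like tag to proteins, and Usp18 removes it and also damps the type I receptor. Isg15 was read at 1.08, 2.13, 1.24 and 1.76 CPM in CTR and at 2.70, 1.60, 4.10 and 4.53 CPM in CAC, from 3 to 8 counts per CTR library and 3 to 14 per CAC library. CAC replicates 1, 3 and 4 lay above every CTR mouse, while CAC replicate 2 lay among them. On the log2 CPM scale with a prior count of 2 the mean of Isg15 was 0.76 higher in CAC, with an exact two-sided permutation p of 0.0857. This was the lowest of the 11 members tested in that way, and 4 against 4 mice cannot go below 0.0286. Usp18 averaged 3.93 ± 0.842 CPM in CTR against 4.24 ± 1.81 CPM in CAC (edgeR adjusted p = 0.970).

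The guanylate-binding proteins (GBP) and immunity-related GTPases (IRG) are induced above all by type II interferon. Of these 7 members, 4 were tested, with 2 higher, 2 lower and a median log2 ratio of 0.06. Gbp2 averaged 7.69 ± 1.39 CPM in CTR against 7.27 ± 0.998 CPM in CAC (edgeR adjusted p = 0.957), and Igtp averaged 9.04 ± 3.46 and 10.1 ± 2.10 CPM (edgeR adjusted p = 0.838). Exons of Igtp and Irgm2 overlap on the same strand, so reads there could be split between them. Gbp7 was at 18.4, 22.1, 21.6 and 16.8 CPM in CTR and at 14.1, 14.4, 27.0 and 13.6 CPM in CAC. Here 3 CAC mice lay below every CTR mouse and CAC replicate 3 lay above all of them. The log2 ratio of Gbp7 was -0.14 (edgeR adjusted p = 0.849), and -0.49 without that mouse, with an unadjusted p below 0.05 and an edgeR adjusted p of 0.307. Over all libraries left out in turn, the log2 ratio of Gbp7 ran from -0.49 to -0.01.

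CAC replicate 3 was also the highest CAC mouse for Iigp1, Gbp3, Irgm1 and Irgm2, but not for Gbp2 and Igtp. Iigp1 was at 15.5, 19.2, 17.4 and 11.7 CPM in CTR and at 17.3, 11.7, 35.2 and 6.97 CPM in CAC, so that CAC held both the highest and the lowest value. Its log2 ratio was 0.23 with an interval from -0.91 to 1.37 (edgeR adjusted p = 0.900), and -0.46 without CAC replicate 3. Gbp3 was at 2.88, 2.13, 3.32 and 3.09 CPM in CTR and at 0.541, 0.532, 4.40 and 0.349 CPM in CAC. These CAC levels stand for 1, 1, 15 and 1 counts, against 8, 8, 8 and 14 counts in CTR, with a difference of -1.07 in mean log2 CPM and an exact permutation p of 0.143. Summed over the 7 GTPases, the level was 45 to 66 CPM in CTR and 41.8 to 53 CPM in CAC replicates 1, 2 and 4, against 88.2 CPM in CAC replicate 3. In that library the summed macrophage and monocyte markers were also the highest of the 8, at 428.1 CPM, and their part was not tested.

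**Figure D2:**
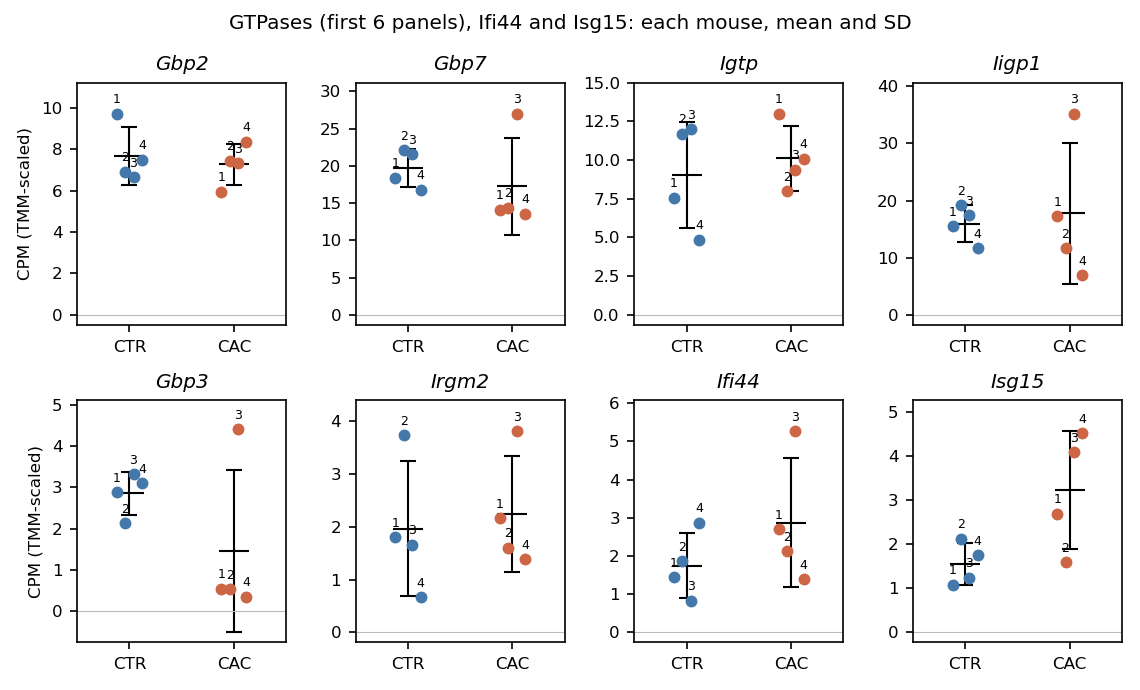
Level in CPM (linear axes) of 6 GBP and IRG genes, Ifi44 and Isg15 in each CTR and CAC mouse, with replicate numbers and bars for the mean and SD of 4 mice. CAC replicate 3 is the highest CAC mouse for Gbp7, Iigp1, Gbp3, Irgm2 and Ifi44, and the SD bar of Gbp3 in CAC extends below 0 because its mean of 1.45 CPM is smaller than its SD of 1.96 CPM.

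Among the 11 other induced genes, 9 were tested. Ifi27, a mitochondrial protein linked to cell death, was at 1431, 1576, 1487 and 1495 CPM in CTR and at 1476, 1250, 1341 and 1353 CPM in CAC. CAC replicate 1 lay within the CTR range and the other CAC mice below it, with a log2 ratio of -0.14 (SE 0.09, 95% interval -0.33 to 0.04, edgeR adjusted p = 0.521). Its paralogue Ifi27l2a, which lies close to it on chromosome 12, was at 319.6, 435.2, 415.8 and 516.4 CPM in CTR and at 339.5, 322.3, 496.4 and 322.1 CPM in CAC. The log2 ratio of Ifi27l2a was -0.19 (edgeR adjusted p = 0.702), and the highest CAC mouse was again replicate 3. Without that mouse it was -0.37, with an unadjusted p below 0.05 and an edgeR adjusted p of 0.243, and over all libraries left out in turn it ran from -0.37 to -0.07, the latter without CTR replicate 4. This pair received 77.3% to 83.7% of all counts assigned to the 39 members in a library, a share of reads and not of transcripts per length.

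The summed level of all 39 members was therefore set by this pair, at 2308.4 ± 138.4 CPM in CTR against 2185.1 ± 159.2 CPM in CAC (SD, n = 4). The sum of the other 37 members was 366.7 to 404.3 CPM in CTR and 419.7 to 538.6 CPM in CAC. The pair was set aside after its values were seen, so no test was made of this sum. Lgals3bp, a secreted glycoprotein, averaged 67.8 ± 5.63 CPM in CTR against 77.1 ± 9.06 CPM in CAC (edgeR adjusted p = 0.547). Ifi35, a regulator of innate immune signalling, had a log2 ratio of 0.27 (edgeR adjusted p = 0.718), which ran from 0.13 to 0.48 with single libraries left out. Parp14, a mono-ADP-ribosyltransferase, had a log2 ratio of 0.08 (edgeR adjusted p = 0.915), and Sp100, a nuclear body protein, 0.07 (edgeR adjusted p = 0.934). Ifi44 and Xaf1 were under the filter, with exact permutation p-values of 0.286 and 1.

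**Figure D3:**
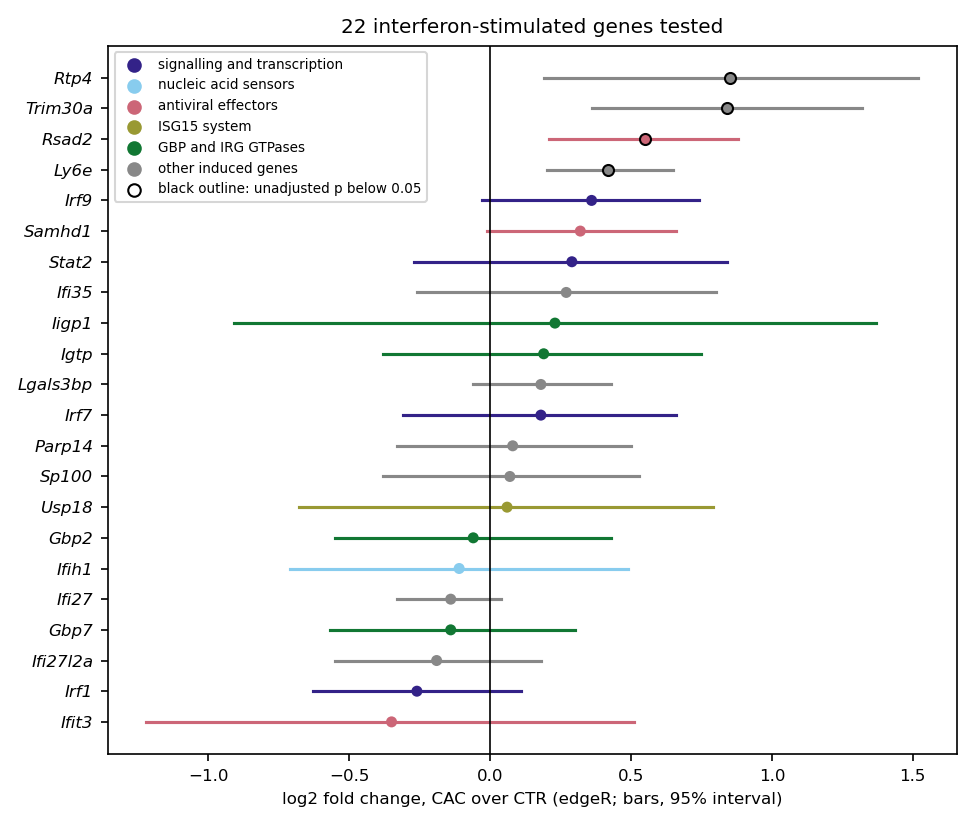
Log2 fold change of CAC over CTR for the 22 members tested (horizontal axis, edgeR), with bars for the 95% interval and colours for the role of each gene. The intervals of Rtp4, Trim30a, Rsad2 and Ly6e lie above 0, and those of the other 18 members include 0.

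In all, 17 members were under the low-count filter. For 11 of them, with 33 to 83 counts over the 8 libraries and no library above 5.58 CPM, an exact permutation test was made. In 8 of them the mean log2 CPM with the prior count was higher in CAC and in 3 it was lower, and none reached a p below 0.05. The groups overlapped in all 11, whereas they did not in 3.71% of all genes under the filter with at least 3 counts in 4 libraries, a set not matched to the members in total counts. The remaining 6, Zbp1, Ifit2, Oas2, Mx1, Bst2 and Irgm1, had 4 to 21 counts in total and at most 7 in a library. Of the tested members, 18 had at least 10 counts in every library.

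The mice were compared by their median distance over the tested members from the CTR mean on the log2 scale. It was -0.08, 0.11, 0 and -0.01 in the CTR mice and 0.03, 0.11, 0.34 and 0.11 in the CAC mice, while over all tested genes it lay between 0 and 0.01 in each library. CAC replicate 3 was thus the mouse with the highest median. It held the highest CAC value of 9 of the 22 members and the lowest of 1, whereas CAC replicate 4 held the highest of 4 and the lowest of 9. Among the CTR mice, replicate 2 likewise held the highest value of 9 members and the lowest of 3.

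**Figure D4:**
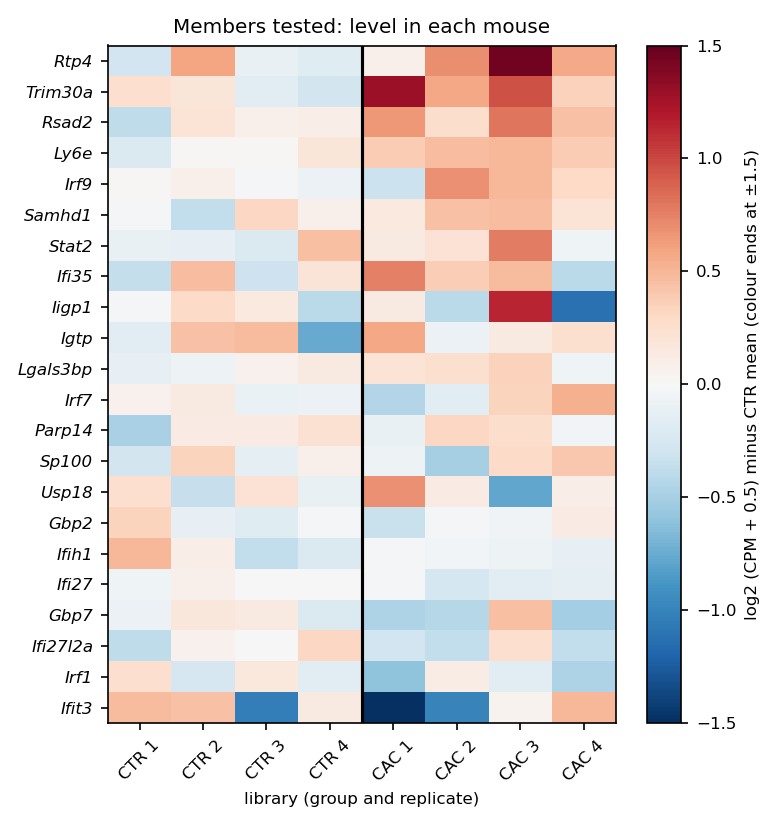
Level of the 22 members tested in each mouse, as log2 (CPM + 0.5) minus the CTR mean of the gene, with red above and blue below the CTR mean and colours ending at 1.5 on either side. Red cells gather in CAC replicate 3 and in the top rows, from Rtp4 to Ly6e, where all 4 CAC mice are red.

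The rest of the pathway was read from the same fit. Of 21 interferon ligand genes, 20 had 0 counts in all 8 libraries and Ifnz had 1 count, so that no ligand could be compared at this depth. T and NK cells, the usual source of type II interferon, were close to the limit of reading as well, with 12 markers that summed to 2.9 to 5.86 CPM in CTR and 4.53 to 5.85 CPM in CAC and with Cd3g and Gzmb at 0 counts throughout. Siglech, a defining marker of the plasmacytoid dendritic cells that secrete type I interferon, had 5 counts in total, and Klk1 and Pacsin1 had 0. Of the 8 markers of these cells, Bst2, a member, had 21 counts and Ly6d and Ccr9 were also under the filter. The 8 summed to 212.3 to 357.7 CPM in CTR and 290.8 to 439.5 CPM in CAC, nearly all of it from Tcf4 and Cox6a2, which other cells of the tissue express too. Tcf4 averaged 148.0 ± 4.23 CPM in CTR against 148.8 ± 24.8 CPM in CAC, and Cox6a2 121.4 ± 66.5 against 219.6 ± 65.0 CPM (edgeR adjusted p = 0.994 and 0.500).

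Of 6 receptor genes, 5 were tested, 3 had a log2 ratio above 0, and none passed an unadjusted p of 0.05 in edgeR. Ifngr1 averaged 32.2 ± 1.43 CPM in CTR against 38.6 ± 5.66 CPM in CAC (edgeR adjusted p = 0.440), and Ifnar2 51.1 ± 3.36 and 57.9 ± 2.83 CPM (edgeR adjusted p = 0.541). Ifngr2, Ifnar1 and Il10rb had log2 ratios of -0.41, 0.28 and -0.02, with edgeR adjusted p-values of 0.717, 0.786 and 1. Of the kinases, Jak1 averaged 91.3 ± 7.69 CPM in CTR against 108.8 ± 12.9 CPM in CAC (unadjusted p below 0.05, edgeR adjusted p = 0.341). Tyk2 and Jak2 had log2 ratios of 0.43 and -0.06 (edgeR adjusted p = 0.673 and 0.957).

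Among 12 genes that restrain interferon signalling, 9 were tested by edgeR and none passed the adjusted threshold. Pias3, an inhibitor of the JAK-STAT pathway, was at 14.4, 18.1, 15.4 and 16.8 CPM in CTR and at 10.8, 10.6, 12.6 and 10.5 CPM in CAC. All CAC mice lay below all CTR mice, as in 3.4% of all tested genes, and the log2 ratio of Pias3 was -0.53 (unadjusted p below 0.05, edgeR adjusted p = 0.182). Irf2, a repressor that competes with Irf1, had a log2 ratio of 0.33 (unadjusted p below 0.05, edgeR adjusted p = 0.365) and Ptpn1, a phosphatase of JAK kinases, 0.18 (edgeR adjusted p = 0.545). Socs3, a feedback inhibitor of cytokine receptors, was under the filter and is named after its values were seen, at 0.72, 1.07, 0 and 0.882 CPM in CTR and at 3.24, 1.60, 1.76 and 3.83 CPM in CAC. Its CAC values all lay above its CTR values, from 0 to 4 counts per CTR library and 3 to 11 per CAC library, and no test was made of it. Of the pathway genes under the filter, Tlr7, a sensor of single-stranded RNA, and Ifit3b, a paralogue of Ifit3, separated in the opposite direction, with means of 1.02 and 1.80 CPM in CTR and 0.456 and 0.660 CPM in CAC. Socs3 and Ifit3b can be read beside the share of 3.71% given above, while Tlr7, with 0 to 4 counts in a library, has too few counts for that comparison.

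Of 15 genes that lead to interferon production, 11 were tested. The adjusted threshold was passed by 1 of them, as higher in CAC, beside 0.739% of all tested genes. Sting1, the adaptor through which cytosolic DNA triggers interferon synthesis, was at 5.76, 6.92, 3.73 and 5.51 CPM in CTR and at 13.0, 17.0, 15.8 and 7.67 CPM in CAC. It rose from 5.48 ± 1.32 to 13.4 ± 4.16 CPM (SD, n = 4) without overlap of the groups, a log2 ratio of 1.24 (SE 0.27, edgeR adjusted p = 0.0217). Sting1 no longer passed, leaving 0 genes of this group, when CTR replicate 1 was left out, nor when CAC replicate 2 or CAC replicate 3 was. Irf3, the transcription factor activated downstream of it, averaged 36.6 ± 6.61 and 46.9 ± 4.76 CPM (unadjusted p below 0.05, edgeR adjusted p = 0.260), and Myd88, an adaptor of Toll-like receptors, had a log2 ratio of 0.35 (edgeR adjusted p = 0.587).

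A further 91 interferon-stimulated genes outside the set were in the table, and 41 were tested. Of these, 28 were higher and 13 lower in CAC, beside 50% higher among all tested genes, with a median log2 ratio of 0.08. The adjusted threshold was passed by 3, all of them higher, beside 0.739% of all tested genes, and DESeq2 called 1 gene of this list. Isg20, an exonuclease that degrades viral RNA, was at 11.5, 9.85, 19.1 and 9.7 CPM in CTR and at 34.6, 20.2, 26.7 and 25.8 CPM in CAC, a rise of 1.14 on the log2 scale (SE 0.21, edgeR adjusted p = 0.00998). Ifi207, of the family of interferon-inducible DNA-binding proteins, rose from 2.34 ± 0.283 to 6.61 ± 1.11 CPM (SD, n = 4, log2 ratio 1.43, edgeR adjusted p = 0.0201). With 5 to 12 counts per CTR library, Ifi207 passed the low-count filter only through its CAC libraries. Its direction was thus set by the filter, and the shares of all tested genes are no fair comparison for it. Ube2l6, the enzyme that conjugates ISG15, rose from 5.83 ± 1.93 to 12.3 ± 4.21 CPM with overlapping groups (log2 ratio 1.16, edgeR adjusted p = 0.0484), and 7 libraries hold fractions of reads on it that other genes share. Between 1 and 3 genes passed when single libraries were left out, and it was 1 gene when CTR replicate 1, CTR replicate 2 or CAC replicate 3 was the one omitted. At an unadjusted p below 0.05, 5 genes of this list were higher in CAC and 2 lower, beside 7.01% and 5.93% of all tested genes. Among the lower genes, Cmpk2, a mitochondrial nucleotide kinase that neighbours Rsad2, was at 5.76, 5.86, 5.39 and 3.75 CPM in CTR and at 3.24, 2.13, 3.52 and 2.44 CPM in CAC. All CAC mice lay below all CTR mice, with a log2 ratio of -0.81 (unadjusted p below 0.05, edgeR adjusted p = 0.275), while Rsad2 beside it was higher in CAC. Cxcl9, also lower, averaged 13.7 ± 2.11 CPM in CTR against 8.75 ± 3.74 CPM in CAC with overlapping groups (log2 ratio -0.55, edgeR adjusted p = 0.328).

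The macrophage and monocyte markers are given beside these genes because such cells express many of them. Of 15 markers, 10 were tested and 9 of those were higher in CAC, beside 50% of all tested genes. The median log2 ratio of the 10 was 0.49. The adjusted threshold was passed by 2, both higher, beside 0.739% of all tested genes. These were C1qa and C1qb, subunits of complement C1q. C1qa rose from 42.8 ± 6.13 to 76.3 ± 8.29 CPM (SD, n = 4, log2 ratio 0.83, edgeR adjusted p = 0.00103).

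**Figure D5:**
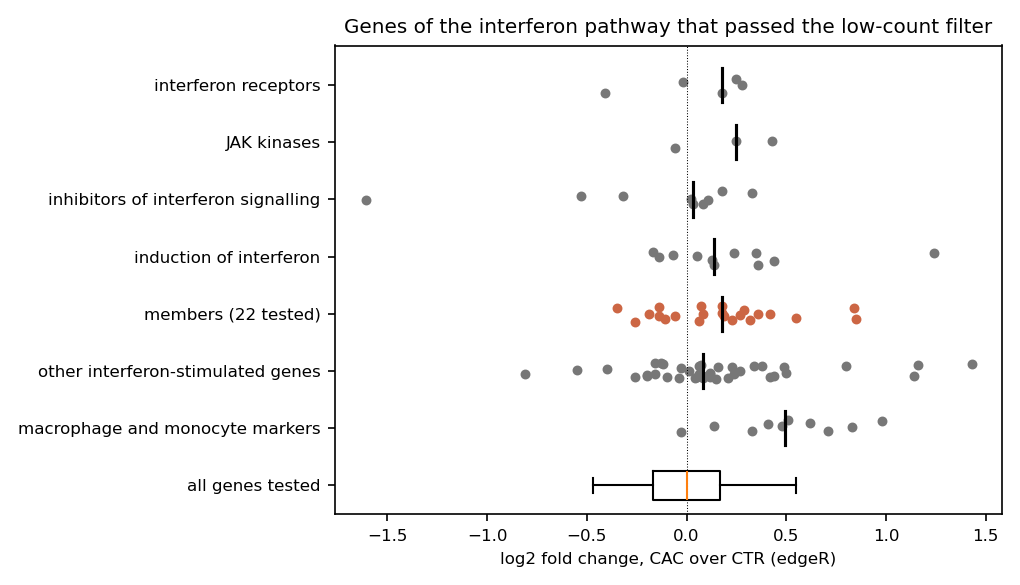
Log2 fold change of CAC over CTR (horizontal axis, edgeR) of each tested gene of the interferon pathway and of the macrophage and monocyte markers, with a black bar at the median of each group and, for all genes tested, a box of the quartiles with whiskers at the 5th and 95th percentiles. The 22 members lie around a median of 0.18, and the points furthest to the right are Ifi207 and Sting1.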

How the data were processed

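The authors checked reads with FastQC 0.11.9, aligned them to mm10 with HISAT2 2.2.1 and counted them with featureCounts and its multi-mapping option. The deposited count table holds expected counts that are not normalized, and 25.1% to 28.4% of the nonzero values of each library include a fraction of a read. A further deposited table holds a signal, the counts that the authors normalized with DESeq2, and was used only as an alternative. After rounding, edgeR 4.0.16 was run in R 4.3.3 (filterByExpr, TMM, robust quasi-likelihood test, no covariate, Benjamini-Hochberg adjustment). Members under the filter with at least 3 counts in 4 libraries were compared by exact two-sided permutation over 70 assignments of the mean log2 CPM (prior count 2). Precision follows from the counts per library, and p-values measure the spread between these 4 mice per group. All 39 members were matched by Ensembl ID without version to GENCODE M21 (GRCm38), and 19 of them hold fractions of reads in at least 1 library. Exons of 15 members overlap another gene, 7 of them on the same strand, and the strand setting of the counting is not given in the sources used here. ISRE and GAS letters were searched on both strands of the RefSeq promoters. In the 11 members without a promoter in that table no search was made.

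The members and lists were chosen with earlier results of these data known, so no test over a list was made. Values in every library are given for members with an unadjusted p below 0.05, with groups that do not overlap or among the 3 largest changes in either direction, and other members by group. Samhd1, Irf9, Isg15, Gbp3, Gbp7, Iigp1, Ifi27, Pias3, Cmpk2, Socs3, Sting1 and Isg20 are given per library as a choice made after their values were seen. The same holds for Tlr7, Ifit3b and Cxcl9, which are given by group. Of pathway lists, genes with an adjusted p below 0.05 and the 3 lowest p-values are named. The fit was repeated with DESeq2 1.42.0, with scaling by library size or by the upper quartile, with every gene kept or only those with 10 counts throughout, with a block for the replicate number, and with limma-trend of limma 3.58.1 on log2 (signal + 1). Other settings were an adjusted p of 0.1, a prior count of 0.5, library size CPM, a longer ISRE, and each library left out. Figures were drawn with matplotlib 3.10.9 in Python 3.11.15. A further pathway gene, outside the members and lists described, is not reported here.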

Additional observations from a re-analysis of the deposited data

Results flagged for a closer look

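In 7 of the 82 groups of 4 mice checked over the members tested by edgeR or by permutation, sums of members and summed pathway lists, with cell type markers not included, 1 library stood apart from the other 3 of its group by Dixon's criterion, and chance gives about 1 in 20, or 4.1 of 82. In CAC replicate 3, Gbp7 was at 27.0 CPM against 13.6 to 14.4 CPM in the other CAC mice. In that library Gbp3 was at 4.40 CPM against 0.349 to 0.541 CPM. Ifi27l2a was at 496.4 CPM there, against 322.1 to 339.5 CPM. In CAC replicate 4, Eif2ak2 was at 5.58 CPM against 2.13 to 2.70 CPM. In CTR replicate 4, Stat2 was at 8.16 CPM against 4.98 to 5.40 CPM. In CTR replicate 3, Oas1a was at 2.07 CPM against 0.882 to 1.08 CPM. In CTR replicate 2, Rtp4 was at 6.39 CPM against 3.24 to 3.73 CPM.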

How the results depend on the processing

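The count of all genes with an adjusted p below 0.05 was 92 and became 351 without a filter on low counts, 183 at an adjusted p of 0.1, and 42 to 135 when single libraries were left out. The count of members past the threshold was 0 and became 1 with DESeq2, 1 without a filter, 2 at an adjusted p of 0.1, and 0 to 1 when single libraries were left out. Members lower in CAC at an unadjusted p below 0.05 numbered 0 and became 1 without a filter and 0 to 2 with a library left out, and members higher numbered 3 to 6. The median log2 fold change of the members ranged from 0.02 to 0.21 with a library left out, where 22 to 24 members were fitted. With limma-trend it was 0.07. Of the other interferon-stimulated genes, 1 was called with DESeq2 and 1 to 3 with a library left out. Of the genes of interferon induction, 0 were called with at least 10 counts in every library and 0 to 1 with a library left out. In the former setting Sting1 was not tested, because it had 9 counts in CTR replicate 3. The share of members with an ISRE was 32.1% with the longer ISRE, in which CT follows the core on its strand, against 0.303% of all genes with a promoter. Apart from this removal of Sting1, the cause of these changes was not tested. Of 326 values of single members under alternatives, 309 kept their direction and side of the threshold, 4 newly passed it and 13 reversed, in 7 members. With limma-trend, Usp18 went to -0.01 and Iigp1 to -0.06. With a library left out, the log2 fold change ranged from -0.21 to 0.07 for Ifih1, -0.13 to 0.06 for Gbp2, -0.05 to 0.18 for Parp14, -0.05 to 0.21 for Sp100, -0.18 to 0.35 for Usp18, -0.05 to 0.38 for Igtp and -0.46 to 0.53 for Iigp1.

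Deviations from the group means correlated at -0.02 to 0.04 between libraries with the same replicate number. Over all pairs of a CTR and a CAC library the correlations were -0.05 to 0.04. Of the 4 CTR libraries, 2 correlated best with the CAC library of their own number. With 4 libraries per group, this check cannot decide whether the numbers pair the mice. With the replicate number as a block, 140 genes passed the threshold and 0 members did.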
